A study of Danio rerio with 4 samples.

Results

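The genes described here are 34 zebrafish genes of the unfolded protein response and the integrated stress response, measured in whole *uhrf1* mutant larvae and their siblings. They were chosen by symbol as known chaperones, degradation factors, sensors and targets of these pathways, with earlier results of these data known. They were looked up among the 15171 RefSeq transcript rows of the count table. A row was found for 32 of them, 1 row each, and all 32 passed the filter on low counts. The sensor genes *ern1* and *eif2ak3* matched no row and were not analysed here. The 4 libraries were made from larvae (*Danio rerio*) at 5 days post fertilization, each from 10 pooled whole animals sorted by appearance. Mutant libraries 1 and 2 came from larvae homozygous for the hi272 allele of *uhrf1*, and sibling libraries 1 and 2 from larvae that looked normal and were a mixture of wild-type and heterozygous animals. No other allele, transgene or treatment is named in the labels. Uhrf1 recruits the maintenance DNA methyltransferase to newly replicated DNA, and the comparison asks how gene expression differs when it is lost.

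The endoplasmic reticulum (ER) folds proteins bound for secretion or for membranes. When unfolded proteins build up there, the membrane sensors Ire1, Perk and Atf6 are released from the chaperone Bip and start the unfolded protein response. Ire1 splices the messenger of the transcription factor Xbp1, Atf6 is cut to release a transcription factor, and Perk phosphorylates the translation factor eIF2. Phosphorylated eIF2 lowers general translation and raises translation of Atf4, which is also reached by kinases that sense amino acid shortage or viral RNA and is the core of the integrated stress response. Most of these roles were worked out in yeast and mammalian cells. Professional secretory cells such as those of the exocrine pancreas, liver and cartilage hold the most ER.

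Assigned counts ranged from 2996676 to 9100665 per library. Levels are given below as CPM, the counts of a gene scaled to a common library size after TMM scaling, in the order sibling 1, sibling 2, mutant 1 and mutant 2, and 1 count was worth 0.110 to 0.314 CPM. Changes are log2 fold changes of mutant over sibling with their standard error (SE) from edgeR's quasi-likelihood test, and a gene passed at a Benjamini-Hochberg adjusted p under 0.05 over all 12786 genes tested. Of those, 8.37% passed, with 4.58% higher and 3.79% lower in mutants, and without mutant 2 the higher genes numbered 315 and the lower 234. *uhrf1* stood at 21.4, 46.8, 33.3 and 24.2 CPM (log2 fold change -0.21, SE 0.35, adjusted p = 0.765), so its level does not check the labels. With 2 libraries a group, no exact two-sided permutation test can go below p = 0.333. The labels mention 2 clutches without tying either to a library, so the p-values reflect only how far these 4 pools spread, and part of that may be technical. Markers of skeletal muscle, neurons, liver, intestine, lens and blood were all detected, as whole larvae would show. Exocrine pancreas markers were lower in mutants for 21 of 21 genes tested, lens markers for 11 of 11 and intestinal markers for 10 of 15, or 5 of 15 without either mutant. Of 5 neutrophil markers 3 were higher. Hepatocyte markers had 3 higher and 5 lower of 22, macrophage and leukocyte markers 1 higher and 2 lower of 7, cartilage and notochord markers 1 and 1 of 15, and erythroid markers 2 lower of 9, counts that moved by up to 3 genes when 1 library was left out. No muscle marker of 16 or neuron marker of 10 passed in edgeR, where 0 and 2 had an unadjusted p under 0.05, or in limma-voom, and DESeq2 passed 0 and 1.

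Stress response genes were higher in the mutants for 13 of the 32 with a row, 40.6% against 4.58% of all genes tested, and none was lower. They were the chaperone and folding genes *hspa5*, *hsp90b1*, *hyou1*, *manf*, *calr3a*, *calr3b* and *pdia4*, the Perk and Atf4 arm genes *sesn2*, *ddit3*, *asns* and *atf4b*, and the sensor and transcription factor genes *atf6* and *xbp1*. None of the 4 listed genes of ER-associated degradation passed. The log2 fold change was above 0 for 30 of the 32, against 50.3% of all genes tested, and its median was 0.84 against 0.00. In 26 of the 32 each mutant exceeded each sibling, where 28.0% of all genes tested did so. The set was chosen with earlier results of these data known, so these shares describe it and do not test it. Both mutants were below both siblings for the 2 oxidase genes *ero1a* and *ero1b*, where 26.9% did so. No gene of the 32 was lower at an unadjusted p under 0.05, nor in DESeq2 or limma-voom at their adjusted thresholds. Without mutant 2, 5 of the 32 passed as higher, namely *hspa5*, *manf*, *pdia4*, *ddit3* and *sesn2*.

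**Figure D1:**
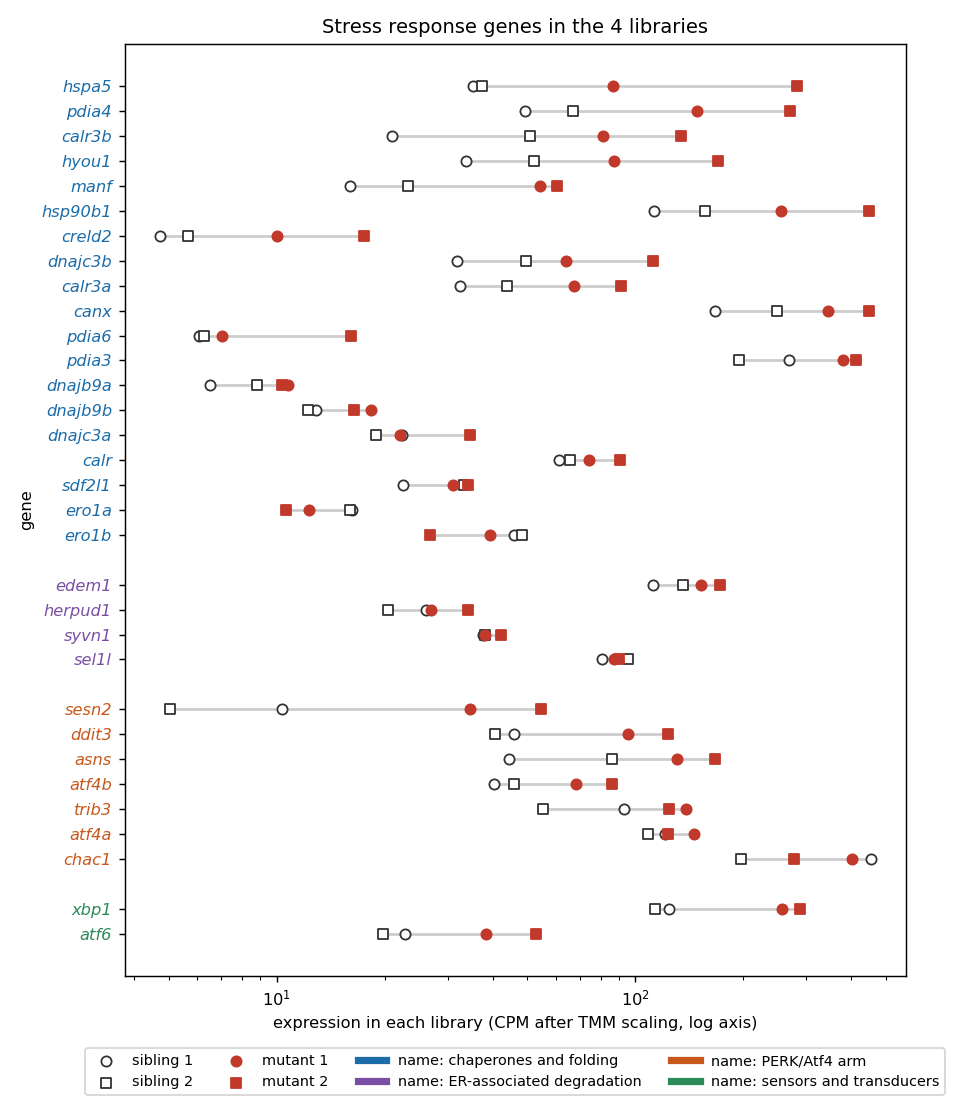
Expression of the 32 stress response genes in each library (x axis, CPM after TMM scaling, log axis), with open symbols for siblings 1 and 2, filled symbols for mutants 1 and 2 and gene names coloured by role. Filled symbols lie to the right of both open ones for 26 genes and to the left of both for *ero1a* and *ero1b*, and the mutant 2 square of *hspa5* stands far to the right of its mutant 1 circle.

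Of all genes tested, 4.58% rose. By role, 7 of 19 chaperone and folding genes rose and 0 of 4 ER-associated degradation genes. The Perk and Atf4 arm had 4 of 7 and the sensor and transcription factor genes 2 of 2. Without mutant 2 these counts were 3, 0, 2 and 0. The medians of their log2 fold changes were 0.93, 0.23, 0.84 and 1.14 in that order. The roles were not tested against each other. Summed over the role, chaperone and folding genes came to 965, 1141, 1795 and 2686 CPM. The 4 degradation genes summed to 257, 289.9, 305 and 339 CPM, and the 7 genes of the Perk and Atf4 arm to 808, 539, 1016 and 956 CPM. Sums are of CPM without correction for transcript length and are dominated by their most counted genes.

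*hspa5* (NM_213058) encodes Bip, the Hsp70 chaperone of the ER and the textbook reporter of the unfolded protein response. The siblings read 35.2 and 37.4 CPM, mutant 1 read 86.4 CPM and mutant 2 read 283 CPM. The siblings were close to each other, both mutants were above them, and mutant 2 was 3.28 times mutant 1. *hspa5* passed narrowly with DESeq2 (adjusted p = 0.0448). In edgeR the log2 fold change was 2.34 (SE 0.46, adjusted p = 0.0114). It was 1.25 without mutant 2 and 2.95 without mutant 1, and it passed both times (adjusted p = 0.0181 and 7.8e-05). In a whole larva, fewer cells of a type and less RNA per cell cannot be told apart, and the same holds for more cells and more RNA.

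Partners of Bip that passed included *hyou1* and *hsp90b1*. *hyou1* (NM_212703), the large Hsp70-like protein that exchanges the nucleotide of Bip, stood at 33.8, 52.2, 87.5 and 170.0 CPM. Neither mutant overlapped the siblings (log2 fold change 1.58, SE 0.33, adjusted p = 0.0167). *hsp90b1* (NM_198210) encodes Grp94, the Hsp90 of the ER, and stood at 113, 157, 255 and 448 CPM. The mutants were again above the siblings, with mutant 2 the highest (1.38, SE 0.32, adjusted p = 0.0249). Without mutant 2 neither gene passed, with log2 fold changes of 1.03 and 0.92 (adjusted p = 0.0885 and 0.191).

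*manf* (NM_001076629), a small secreted and ER-retained protein induced by ER stress in mammals, was at 16.0, 23.3, 54.3 and 60.4 CPM. The mutants lay close together, well above the siblings. Its log2 fold change of 1.55 (SE 0.25, adjusted p = 0.00413) stayed between 1.29 and 1.83 when each library was left out in turn. *creld2*, an ER protein with disulfide isomerase activity in mammals, was at 4.74, 5.66, 10.0 and 17.5 CPM. The mutants were above the siblings, but counts were as low as 18 in a library and it did not pass (1.37, SE 0.41, adjusted p = 0.0680), although it did without mutant 1 (adjusted p = 0.0356).

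J-domain proteins hand substrates to Bip. *dnajc3b*, a relative of the P58IPK co-chaperone, stood at 31.8, 49.7, 64.1 and 112 CPM. The mutants were above the siblings and the gene missed the threshold (1.11, SE 0.31, adjusted p = 0.0553). It passed under 6 of 13 alternatives, among them DESeq2 (adjusted p = 0.0320), without sibling 2 (0.00516) and without mutant 1 (0.0139). Its copy *dnajc3a* stood at 22.3, 18.9, 22.1 and 34.5 CPM, with mutant 1 between the siblings (0.43, SE 0.29, adjusted p = 0.408). *dnajb9a* and *dnajb9b*, copies of the co-chaperone gene ERdj4 that Xbp1 induces in mammals, had log2 fold changes of 0.48 (SE 0.35) and 0.47 (SE 0.28) and did not pass. *sdf2l1*, a further ER stress gene in mammals that works with J-domain proteins, stood at 22.5, 33.3, 31.0 and 34.2 CPM, with the groups overlapping (0.23, SE 0.26, adjusted p = 0.648). Its 95% interval, from -0.35 to 0.81, holds no rise as large as 2-fold.

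Lectin chaperones bind the sugars of new glycoproteins. The soluble calreticulin genes *calr3a* and *calr3b* rose, whereas *calr* did not pass. *calr3b* (NM_201465) stood at 21.0, 50.9, 81.2 and 134 CPM, with the siblings 2.43 times apart and both mutants above them (1.59, SE 0.38, adjusted p = 0.0311). Its log2 fold change was 1.06 without sibling 1 and 2.35 without sibling 2. *calr3a* (NM_131047) stood at 32.5, 44.0, 67.4 and 91.2 CPM, also without overlap (1.05, SE 0.25, adjusted p = 0.0282). Neither passed without mutant 2 (adjusted p = 0.137 for *calr3b* and 0.185 for *calr3a*), nor did *calr3a* without sibling 1 (adjusted p = 0.0598). *calr* (NM_199713) stood at 61.1, 65.7, 74.4 and 90.6 CPM. Its mutants were above its siblings, and it did not pass (0.38, SE 0.21, adjusted p = 0.320). The membrane-bound *canx*, calnexin, stood at 167, 249, 345 and 449 CPM and did not pass (0.93, SE 0.29, adjusted p = 0.0792), although it did with DESeq2 (adjusted p = 0.0258) and without sibling 2 (0.0168).

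The 3 calreticulin genes can be set against each other within a library, which removes the scaling. Counts of *calr3a* came to 0.531 and 0.670 of those of *calr* in the siblings and 0.905 and 1.01 of them in the mutants. *calr3b* came to 0.343 and 0.775 of *calr* in the siblings and to 1.09 and 1.48 in the mutants. In both ratios the mutants lay above the siblings. For *calr3a* over *calr*, the exact 95% counting intervals ran to 0.834 in sibling 2 and from 0.810 in mutant 1. *calr3b* over *calr3a* was 0.646, 1.16, 1.21 and 1.47 in library order. Its intervals overlapped between sibling 2 (0.917 to 1.46) and mutant 1 (1.08 to 1.34). *dnajc3b* over *dnajc3a* was 1.42, 2.63, 2.90 and 3.24. The groups overlapped for *dnajb9b* over *dnajb9a* (1.97, 1.39, 1.69 and 1.58) and *ero1b* over *ero1a* (2.82, 3.02, 3.20 and 2.51). The difference between these genes was not tested beyond that, identity between copies was not measured, and reads shared by copies could be split between them.

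Disulfide bonds are made in the ER by protein disulfide isomerases, which are reoxidized by Ero1. *pdia4* (NM_199779), the isomerase Erp72, stood at 49.4, 67.0, 149 and 269.7 CPM. The groups were far apart and the gene passed (1.84, SE 0.31, adjusted p = 0.00501), also without mutant 2, when the log2 fold change was 1.36. *pdia3*, which works with the lectin chaperones on glycoproteins, stood at 268, 195, 379.6 and 412 CPM and did not pass (0.77, SE 0.27, adjusted p = 0.110), although it did without sibling 1 (adjusted p = 0.0445). *pdia6* was read at 6.09, 6.29, 7.04 and 16.1 CPM, so that mutant 2 alone stood clear of the rest (0.84, SE 0.45, adjusted p = 0.307).

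The oxidase genes had negative log2 fold changes and did not pass. *ero1b* stood at 45.8, 48.4, 39.4 and 26.7 CPM (log2 fold change -0.49, SE 0.24, adjusted p = 0.265). *ero1a* stood at 16.2, 16.0, 12.3 and 10.6 CPM (-0.48, SE 0.29, adjusted p = 0.365). In both, the siblings were nearly equal and both mutants were below them, as in 26.9% of all genes tested. The 95% intervals ran from -1.03 to 0.06 for *ero1b* and from -1.13 to 0.17 for *ero1a*, so neither direction is settled. They do not reach a rise of the size seen for *pdia4*.

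Exocrine pancreas markers, from cells rich in ER, moved beside these genes. Over 24 matched markers their summed level was 31379, 15313, 2710 and 480.2 CPM. *ctrb.2* was at 0 in every library and *cela1.3* in mutant 2. The part of this loss in the levels of chaperone and oxidase genes was not tested.

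**Figure D2:**
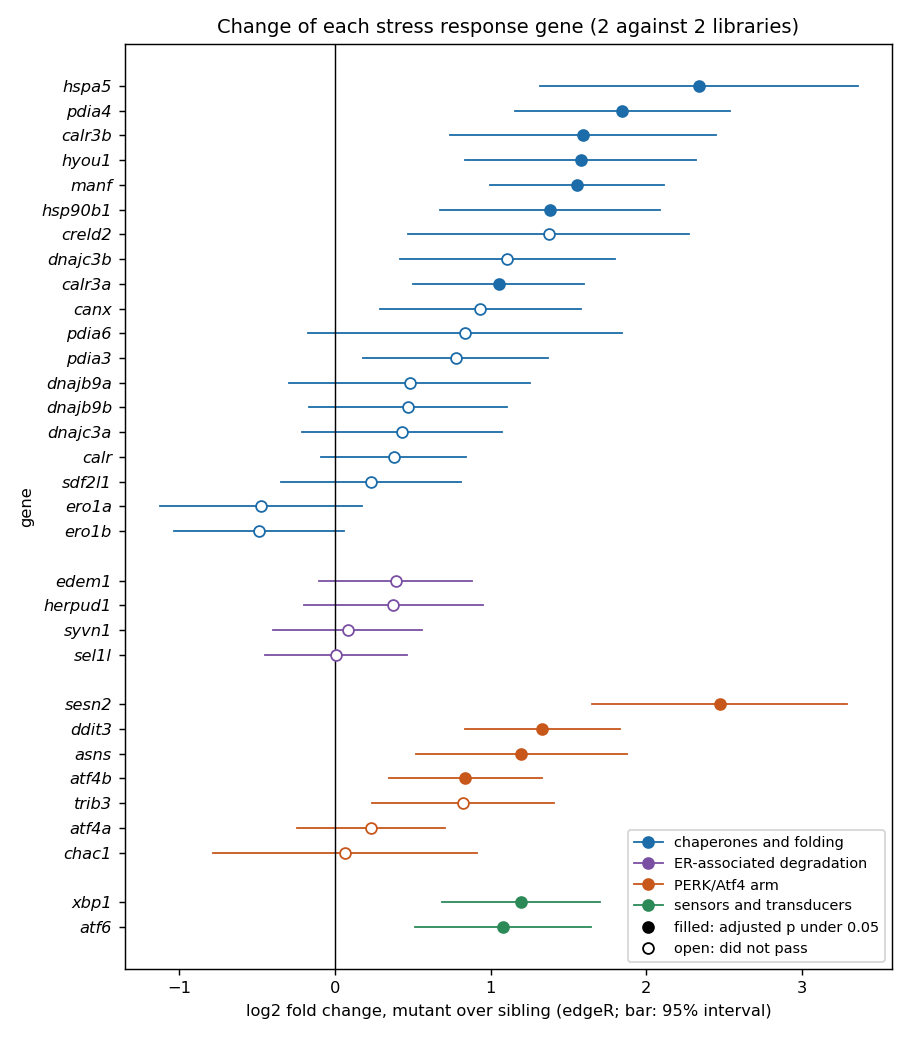
Log2 fold change of each stress response gene, mutant over sibling (x axis, edgeR, 2 against 2 libraries), with 95% intervals as bars, filled where the gene passed an adjusted p of 0.05 and coloured by role. *sesn2* (2.47) and *hspa5* (2.34) lie farthest to the right, the 4 degradation genes lie between 0.01 and 0.39, and *ero1a* and *ero1b* are the 2 genes left of 0.

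ER-associated degradation sends misfolded proteins back to the cytosol, and none of its 4 listed genes passed. Their unadjusted p-values in edgeR gave 0 under 0.05, and DESeq2 and limma-voom called 0. As 4.58% of all genes tested were higher, a count of 0 among 4 genes lies near that share. *edem1*, which marks misfolded glycoproteins for removal, stood at 112, 136, 153 and 173 CPM, with both mutants above both siblings (0.39, 95% interval -0.10 to 0.88). *herpud1*, an organizer of the degradation complex that ER stress induces in mammals, stood at 26.2, 20.4, 27.0 and 34.2 CPM (0.37, 95% interval -0.20 to 0.95). The siblings and mutants were separated there by less than 1 CPM.

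*syvn1* encodes the ubiquitin ligase Hrd1 and *sel1l* its partner. *syvn1* stood at 37.7, 38.0, 38.1 and 42.3 CPM (0.08, 95% interval -0.40 to 0.56). *sel1l* stood at 80.9, 95.6, 87.0 and 90.3 CPM, with both mutants between the siblings (0.01, 95% interval -0.45 to 0.46). The direction of *sel1l* turned under several scalings and left-out libraries, always within 0.12 of 0 when negative. All 4 intervals lie below 1, so a 2-fold rise of any of these genes is outside them.

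In the Perk and Atf4 arm, 4 of 7 genes rose, where 4.58% of all genes tested did so. *sesn2* (NM_001079975), sestrin 2, an inhibitor of mTORC1 signalling that Atf4 and p53 induce in mammals, had a log2 fold change close to that of *hspa5*. It was read at 10.4, 5.03, 34.6 and 54.6 CPM, and the siblings held only 46 and 16 counts. The lower mutant was over 3 times the higher sibling (2.47, SE 0.37, adjusted p = 0.00246), and the log2 fold change lay between 2.08 and 3.11 with 1 library left out. The sestrin genes *sesn1* (1815, 984, 686 and 443 CPM) and *sesn3* (181, 175, 125 and 80.8 CPM) had both mutants below both siblings. Neither passed (-1.31, adjusted p = 0.0783, and -0.79, adjusted p = 0.0865), and both were named after their values were seen. *ddit3* (NM_001082825), the transcription factor Chop of prolonged stress, stood at 45.8, 40.6, 95.2 and 123 CPM. Its mutants were clear of its siblings (1.33, SE 0.22, adjusted p = 0.00501), and it passed without any single library, with log2 fold changes from 1.14 to 1.49.

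*asns* (NM_201163), asparagine synthetase and a classic Atf4 target, stood at 44.4, 86.2, 131 and 167 CPM. Sibling 2 had 1.94 times the level of sibling 1 and both mutants were higher still (1.196, SE 0.30, adjusted p = 0.0385). The call was lost without sibling 1 (adjusted p = 0.0787) and without mutant 2 (adjusted p = 0.167). *trib3*, a pseudokinase that restrains Atf4 in mammals, stood at 92.9, 55.3, 139 and 124 CPM. Both mutants were above both siblings and it did not pass (0.82, SE 0.26, adjusted p = 0.0865), although it did without sibling 1 (adjusted p = 0.0014) and with library totals alone (0.0441).

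The zebrafish has a pair of Atf4 genes. *atf4b* (NM_001103192) stood at 40.4, 45.9, 68.1 and 86.3 CPM and passed narrowly (0.84, SE 0.22, adjusted p = 0.0450). That call was lost under 6 of 13 alternatives, including DESeq2 (adjusted p = 0.0719), limma-voom (adjusted p = 0.0506) and leaving out sibling 1, mutant 1 or mutant 2. *atf4a* (NM_213233) stood at 121, 108, 146 and 124 CPM, with both mutants just above both siblings (0.23, SE 0.21, adjusted p = 0.560). Within a library, counts of *atf4b* came to 0.333, 0.423, 0.467 and 0.698 of those of *atf4a*. The ratio was higher in both mutants, although the exact 95% counting intervals of sibling 2 and mutant 1 overlapped (0.346 to 0.515 and 0.424 to 0.514). Atf4 is controlled largely at translation, which transcript counts do not measure.

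*chac1* (NM_001110126), a glutathione-degrading enzyme gene that Atf4 induces in mammals, did not follow *ddit3*. It stood at 453, 197, 403 and 277 CPM, with both mutants between the siblings (0.06, SE 0.38, adjusted p = 0.947). The siblings differed from each other by more than the mutants did. Its log2 fold change was -0.41 without sibling 2 and 0.78 without sibling 1.

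Of the sensors and their transcription factors, both genes with a row rose, where 4.58% of all genes tested did so. *xbp1* (NM_131874) stood at 124, 113, 257 and 287 CPM, with each group tight and the groups apart (1.196, SE 0.23, adjusted p = 0.0101). *atf6* (NM_001110519) stood at 22.8, 19.8, 38.3 and 52.9 CPM, also without overlap (1.08, SE 0.25, adjusted p = 0.0276). Without mutant 2 their log2 fold changes were 1.11 and 0.84 and neither passed (adjusted p = 0.0668 and 0.217). The counts are summed over each transcript, so they give neither the splicing of *xbp1* nor the cleavage of Atf6.

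**Figure D3:**
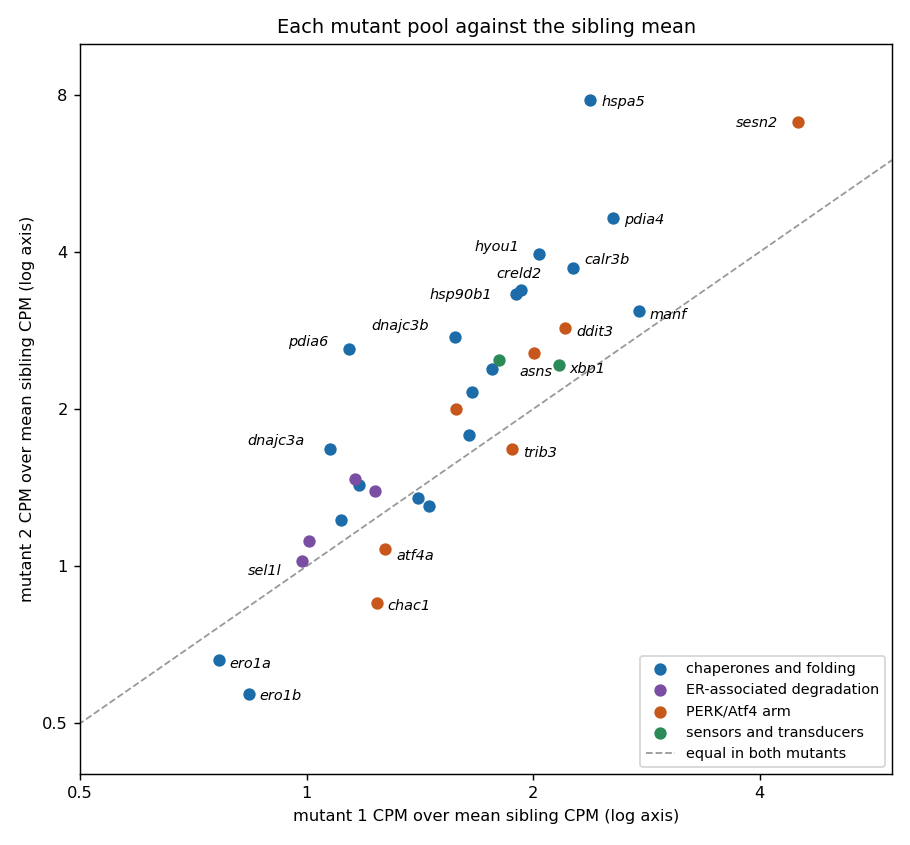
Level of each stress response gene in mutant 1 (x axis) and mutant 2 (y axis), each divided by the mean of the siblings, on log axes, coloured by role, with a dashed line where both mutants are equal. Of the 32 genes, 25 lie above the line, with *hspa5* at 2.38 and 7.80, whereas *chac1*, *atf4a* and *trib3* of the Perk and Atf4 arm lie below it.

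The mutant pools differed in how far chaperone genes stood above the siblings. Mutant 2 was above mutant 1 for 25 of the 32 genes, against 49.7% of all genes tested, and for 15 of the 19 chaperone and folding genes. The median ratio of mutant 2 to mutant 1 was 1.35 over chaperone and folding genes, 1.12 over degradation genes, 1.27 over the Perk and Atf4 arm and 0.998 over all genes tested. The ratio of 3.28 for *hspa5* was reached or exceeded by 29 of the 12786 genes tested. *pdia6* (2.29), *hyou1* (1.94) and *pdia4* (1.82) followed, whereas *manf* (1.11), *xbp1* (1.12) and *pdia3* (1.09) were nearly equal in the mutants.

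Sibling 2 was likewise above sibling 1 for 15 of the 19 chaperone and folding genes, with a median ratio of 1.35. The same held for 2 of the 7 genes of the Perk and Atf4 arm, with a median of 0.89. Of all genes tested, 50.13% had sibling 2 above sibling 1. Other measures moved with the library number. The summed level of 15 cartilage and notochord markers was 1861, 3460, 2554 and 4341 CPM, higher in the libraries numbered 2 in both groups. Pancreas markers were lower in them. Those shifts' part in the chaperone levels was not tested.

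**Figure D4:**
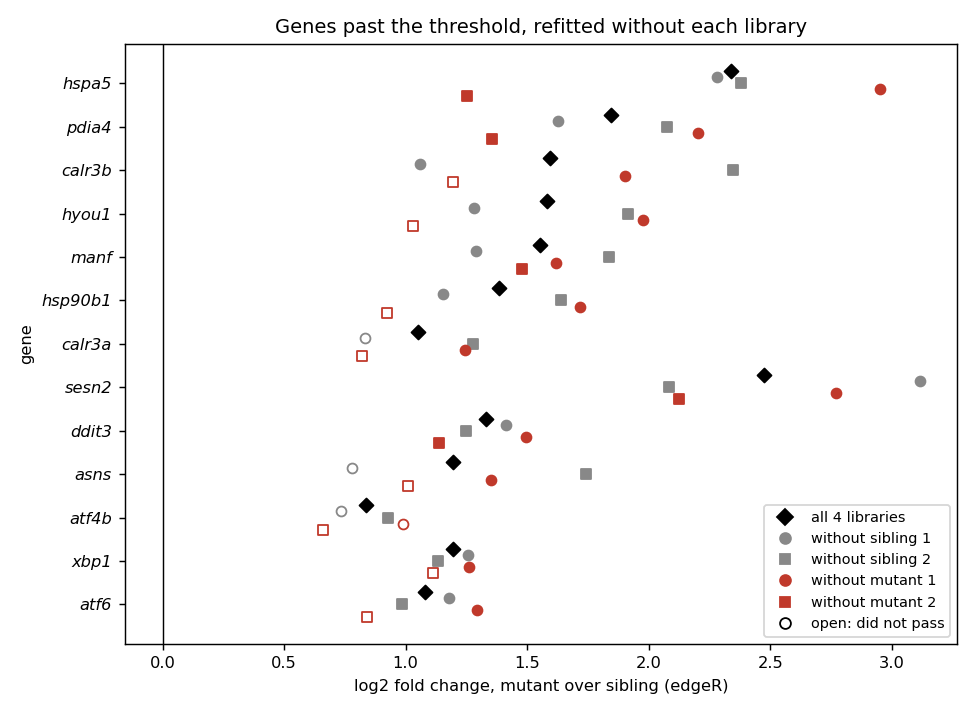
Log2 fold changes of the 13 stress response genes that passed (x axis, edgeR), with all 4 libraries (diamonds) and refitted without each library, open where the gene did not pass. All values are above 0, and 8 genes are open without mutant 2, among them *hyou1*, *hsp90b1*, *xbp1* and *atf6*.

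Genes that Atf4 controls in mammals for amino acid supply and for charging transfer RNA were examined next. Of 14 cytosolic aminoacyl-tRNA synthetase genes tested, 7 rose and none fell, where 4.58% of all genes tested rose, with a median log2 fold change of 0.93. In 13 of them the mutants were above the siblings without overlap, where 28.0% of all genes tested were. The synthetase list and the other wider lists were also chosen with earlier results of these data known. The tyrosyl-tRNA synthetase gene *yars1* stood at 60.4, 65.1, 146 and 185 CPM (1.397, SE 0.22, adjusted p = 0.00380). *tars1*, for threonine, stood at 5.86, 5.97, 17.6 and 21.9 CPM (1.72, SE 0.32, adjusted p = 0.00946). *mars1*, for methionine, stood at 31.1, 33.6, 63.0 and 86.3 CPM (1.198, SE 0.23, adjusted p = 0.0114). In each, the siblings were nearly equal and both mutants were above them. Without mutant 2, *tars1* (adjusted p = 0.0514) and *mars1* (adjusted p = 0.0823) did not pass and 1 synthetase gene was higher.

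Of 21 genes tested for the supply of amino acids and one-carbon units, 5 rose (23.8%) and 2 fell, with a median of 0.33. Of all genes tested, 4.58% rose and 3.79% fell. The neutral amino acid transporter gene *slc1a4* stood at 15.6, 22.6, 69.3 and 81.1 CPM (1.99, SE 0.25, adjusted p = 0.00110). *gpt2*, a mitochondrial alanine aminotransferase, stood at 26.4, 29.9, 65.0 and 74.5 CPM (1.31, SE 0.22, adjusted p = 0.00487). *phgdh*, the first enzyme of serine synthesis, stood at 46.9, 49.99, 99.7 and 132 CPM (1.25, SE 0.22, adjusted p = 0.00710). All 3 had both mutants well above both siblings. The others called were the mitochondrial folate enzyme genes *mthfd2* (1.70) and *mthfd1l* (1.41), which were higher, and the cystathionine synthase gene *cbsa* (-1.11) and the transporter heavy chain gene *slc3a2a* (-1.01), which were lower. The copies *cbsb* (0.35, adjusted p = 0.512) and *slc3a2b* (0.11, adjusted p = 0.835) did not pass, and their groups overlapped. *slc3a2b* stood at 317, 238, 307 and 294 CPM. The 4 called genes and both copies were named after their values were seen. Without mutant 2, 4 were higher and none lower, and without mutant 1, 5 were higher and 1 lower.

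Among 21 other regulators of the Atf4 arm, 2 rose (9.52%) and 1 fell, with a median of 0.00, where 4.58% and 3.79% of all genes tested did so. The transcription factor gene *atf3* stood at 21.2, 23.9, 238 and 217 CPM (3.34, SE 0.23, adjusted p = 4.5e-05), a larger change than that of any of the 32 genes. *cebpb*, a partner of stress factors that inflammation also induces, stood at 59.5, 31.1, 131 and 96.0 CPM (1.32, SE 0.30, adjusted p = 0.0253). It did not pass without mutant 1 (adjusted p = 0.0909). *nupr1b*, a stress-inducible nuclear protein gene, was lower at 82.1, 49.4, 35.2 and 23.6 CPM (-1.14, SE 0.29, adjusted p = 0.0395). Its call was lost without sibling 1, without mutant 2 and with limma-voom. Without sibling 1, 4 of these regulators were higher and 0 lower, and without sibling 2, 2 were higher and 5 lower.

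The eIF2 kinases and the subunits of eIF2 and its exchange factor numbered 15 tested, of which 2 rose (13.3%, against 4.58% of all genes tested). *pkz*, a fish kinase of eIF2 that binds Z-form nucleic acid and is induced by interferon, stood at 6.31, 9.75, 49.0 and 47.7 CPM. Both mutants were far above both siblings (2.61, SE 0.28, adjusted p = 0.000470), and the change lay between 2.30 and 2.93 under every alternative. *eif2s2*, the beta subunit of eIF2, stood at 47.4, 31.1, 76.3 and 94.3 CPM (1.11, SE 0.25, adjusted p = 0.0238) and was lost without sibling 2 or mutant 2. *eif2b1*, a subunit of the exchange factor, stood at 28.6, 19.8, 35.3 and 44.0 CPM and did not pass (0.69, SE 0.26, adjusted p = 0.143). Neutrophil markers rose beside these genes, at a summed 94.9, 84.9, 242 and 245 CPM, and their part in *pkz*, *atf3* and *cebpb* was not tested.

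ER machinery beyond the 32 genes was also counted. Its shares of calls at the adjusted threshold lay near the 4.58% higher and 3.79% lower of all genes tested. The log2 fold change was above 0 for 76.3% of other ER folding factors and 73.1% of ER to Golgi genes. It was above 0 for 63.6% of translocation and glycosylation genes and 76.9% of membrane-bound factors and proteases. For other degradation genes the share was 48.0%, and for all genes tested 50.3%. In 28.0% of all genes tested both mutants were above both siblings, and in 26.9% both were below. Among other ER folding factors this was 22 and 4 of 38, in translocation and glycosylation 15 and 5 of 33. In ER to Golgi transport it was 15 and 2 of 26. Other degradation genes had 4 and 6 of 25, and membrane-bound factors and proteases 5 and 2 of 13. Of 38 other ER folding factors tested, 1 rose and 2 fell, with a median of 0.39. At an unadjusted p under 0.05 in edgeR, 12 of the 38 were higher and 3 lower, against 1593 and 1384 of all 12786 genes tested. *fkbp11*, a prolyl isomerase of secretory cells, fell from 38.3 and 30.5 CPM to 8.92 and 6.04 CPM (-2.15, SE 0.30, adjusted p = 0.00172). *tmx3a*, a membrane-bound thioredoxin-like protein gene, was lower at 30.7, 48.7, 19.4 and 16.4 CPM (-1.13, SE 0.28, adjusted p = 0.0360). *fkbp9*, another prolyl isomerase gene, was higher at 8.79, 18.9, 30.4 and 38.8 CPM (1.34, SE 0.35, adjusted p = 0.0419). *tmx3a* was lost with limma-voom, with library totals alone and without sibling 2, mutant 1 or mutant 2, and *fkbp9* without sibling 1 or mutant 2. The number higher depended on which library was left out, and it was largest without sibling 2. Without mutant 1, 2 were higher and 1 lower, and without mutant 2, 1 was lower.

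Of 25 other ER-associated degradation genes tested, 2 rose and 1 fell, with a median of -0.07. *vcp*, the ATPase that pulls substrates from the membrane, stood at 167, 165, 263 and 440.3 CPM (1.08, SE 0.29, adjusted p = 0.0475). The derlin genes, for proteins of the degradation channel, split: *derl2* was higher at 15.6, 17.3, 32.4 and 33.6 CPM (1.01, SE 0.25, adjusted p = 0.0326) and *derl3* lower at 44.0, 33.6, 20.3 and 17.3 CPM (-1.04, SE 0.25, adjusted p = 0.0313). Both derlin calls were lost without sibling 1, mutant 1 or mutant 2, that of *derl2* also with DESeq2 (adjusted p = 0.0597), and that of *vcp* without mutant 2. For *fkbp11*, *tmx3a* and *derl3*, which fell beside the pancreas markers, the part of those cells was not tested.

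Of 33 genes of ER translocation, signal peptidase and glycosylation, 1 rose, the translocon pore gene *sec61a1b* at 45.3, 53.5, 85.5 and 87.1 CPM (0.81, SE 0.21, adjusted p = 0.0394). It was lost with DESeq2, with library totals alone and without sibling 1, mutant 1 or mutant 2. The other pore gene of the list, *sec61a1a*, was more abundant, at 1289, 953, 699 and 656 CPM. Both its mutants were below both siblings and it did not pass (-0.73, SE 0.33, adjusted p = 0.218). It was named after its values were seen. The oligosaccharyltransferase genes *ddost* (0.68, adjusted p = 0.108) and *rpn1* (0.79, adjusted p = 0.139) did not pass. Without sibling 2, 2 genes of this list were higher and 1 lower. Of 26 genes of ER to Golgi transport, none passed in edgeR, DESeq2 or limma-voom. In edgeR 6 of the 26 had an unadjusted p under 0.05 and were all higher. Of all 12786 genes tested, 1593 were higher and 1384 lower at that threshold. The lowest p-values were those of the coat genes *sec13* (0.66, adjusted p = 0.0848) and *sec31a* (0.77, adjusted p = 0.0975) and the cargo receptor gene *tmed9* (0.70, adjusted p = 0.105). Without sibling 1 or sibling 2, 1 gene of the transport list was higher. Of 13 membrane-bound transcription factor and protease genes, 1 rose, *nfe2l1b*, an ER-anchored activator of proteasome genes in mammals, at 23.4, 20.8, 42.9 and 47.7 CPM (1.03, SE 0.23, adjusted p = 0.0215), and it was lost without mutant 1 or mutant 2. Its copy *nfe2l1a* (0.85, adjusted p = 0.0786) and the RNA ligase gene *rtcb* (0.79, adjusted p = 0.0775), whose mammalian product joins the ends of spliced *xbp1* messenger, did not pass. Without sibling 1 or sibling 2, 2 genes of that list were higher.

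**Figure D5:**
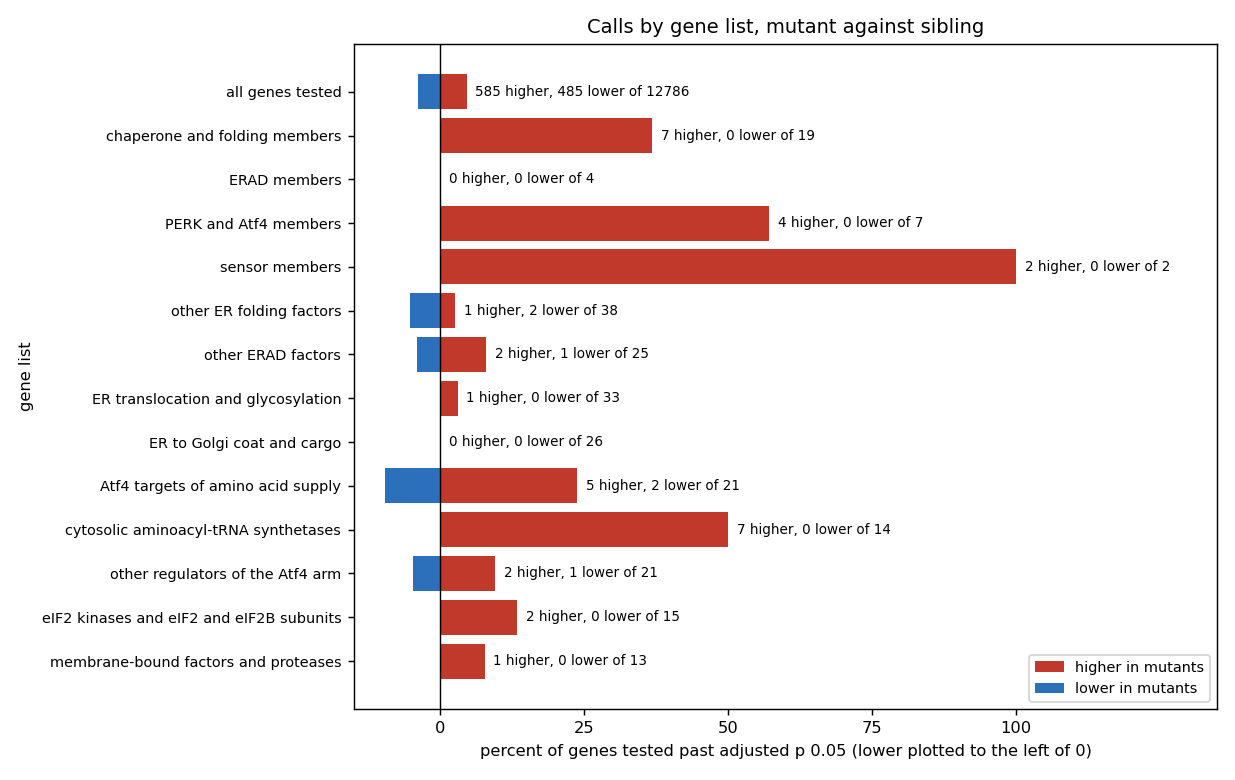
Percent of the genes tested in each list that passed an adjusted p of 0.05 as higher (right, red) or lower (left, blue) in mutants, with the counts printed beside each bar and all 12786 genes tested on top. The bar of sensor members, which holds *atf6* and the transcription factor gene *xbp1* (2 of 2), is the longest. The Perk and Atf4 arm (4 of 7), synthetases (7 of 14) and chaperones (7 of 19) have the next longest bars. The 4 listed degradation genes and the 26 ER to Golgi genes have none higher. Other degradation factors have 2 of 25, other ER folding factors 1 of 38 and translocation and glycosylation genes 1 of 33.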

How the data were processed

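The deposited table holds raw counts per RefSeq accession for 4 libraries, and all its sample columns were used. The submitters' processing notes name genome build GRCz10 and the tools Bowtie2 2.1.0, HTSeq and DESeq2, without their roles. For annotation, filters, strand setting and multi-mapped reads, the authors' choices are not given in the labels or headers used here. Symbols were matched for 14472 of 15171 rows by accession in RefSeq's gene table for assembly GRCz12tu, from which only names were taken, and the row with the most counts stood for a symbol.

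Counts were tested in R 4.3.3 with edgeR 4.0.16 (filterByExpr, TMM, glmQLFTest, mutant against sibling, no block). The SE is the log2 fold change divided by the square root of F, and 95% intervals use the t distribution of the fit. Replicates were not duplicates (chi-square per degree of freedom 15.7 and 13.6), and counting intervals and the precision of 1 count cover counting error only. Simulated data for mutant against sibling held 12786 genes, with 200 changed in each of 3 sets. In them the test found 40.3% of 2-fold, 94.5% of 4-fold and 99.5% of 8-fold changes, and 5.26% of calls were false. The simulated libraries were independent and used the spread fitted here, so effects shared by pools or clutches are not covered. The 200 changed genes a set were also fewer than the 1070 called in the data.

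All genes of the named set were reported, with up to 3 genes of lowest p from each wider pathway list and others where said. The set and the lists were chosen with earlier results of these data known. Alternatives were DESeq2 1.42.0, limma-voom 3.58.1, other scalings and filters, summed rows, a replicate block and leaving out each library.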

Additional observations from a re-analysis of the deposited data

How the results depend on the processing

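Of the 13 stress response genes that were higher, *hspa5*, *manf*, *pdia4*, *ddit3* and *sesn2* passed under all 13 alternatives. Across DESeq2, limma-voom, the scalings, the filters and summed rows, between 12 and 15 of the 32 genes were higher and 0 lower. Leaving out 1 library gave 5 to 15 higher genes, 3 to 9 chaperone and folding genes, 2 to 4 of the Perk and Atf4 arm and 0 to 2 sensor genes, with the low values all without mutant 2. Over all genes it gave 549 to 1525 calls against 1070, with 315 to 796 higher and 234 to 729 lower. The cause was not tested.

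The labels do not say that a replicate number marks a clutch, so the numbers were not taken as pairs. The deviations of same-numbered libraries correlated at 0.242 across genes. With the replicate number as a block, 2531 genes passed, 1366 higher and 1165 lower, 18 of the 32 stress response genes were higher and none lower, and 11 chaperone and folding genes were higher. With the block, 11 other ER folding factors, 4 ER to Golgi genes and 5 other Atf4 arm regulators were higher, against 1, 0 and 2 without it, and 7 of those regulators were lower, against 1.

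Genes with a change near 0 turned sign. *sel1l* was at -0.0024 with DESeq2, -0.0022 with DESeq2 size factors and -0.016 with upper quartile scaling, and from -0.12 to 0.13 with 1 library left out. *sdf2l1* ranged from -0.043 to 0.53 and *chac1* from -0.41 to 0.78 with 1 library left out, each lowest without a sibling. *chac1* was also negative without mutant 1 (-0.25). Library totals alone moved the median of all genes by 0.08. Low counts limit *creld2*, *pdia6* and *dnajb9a*, and also *sesn2* in the siblings (46 and 16 counts). Among wider genes that passed, siblings 1 and 2 held few counts of *tars1* (26 and 19), *pkz* (28 and 31) and *fkbp9* (39 and 60).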
